A study of Homo sapiens with 6 samples.

Results

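Fatty acid oxidation breaks fatty acids down to acetyl-CoA. A long-chain fatty acid is first joined to coenzyme A, then carried into the mitochondrion as a carnitine ester, and shortened in repeated rounds of dehydrogenation, hydration, a second dehydrogenation and thiolysis. Electrons of the first dehydrogenation leave the mitochondrial pathway through electron transfer flavoprotein and its dehydrogenase. Peroxisomes run a related set of reactions on very long and branched chains. Human embryonic stem cells are known for relying mainly on glycolysis for energy. The transcripts of 34 genes of this pathway, out of 23591 genes in the expression table, were described in HEB KO and wild type H1 cells. All 34 symbols were found in the table. The genes were chosen by their role in the pathway, and the pathway itself was selected on a measured value, the difference in CPT1A FPKM between the same HEB KO and wild type libraries. Every difference between the groups is therefore given here as a description, with no p-value for any of the 34 genes.

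The series holds 6 total RNA libraries, 3 of HEB KO cells and 3 of wild type cells. Both groups are H1, an established human embryonic stem cell line, grown without serum in TeSR-E8 medium on Matrigel. HEB is the E protein encoded by TCF12, a basic helix-loop-helix transcription factor, and HEB KO is the genotype named in the labels. The labels do not say how the gene was disrupted, whether the HEB KO libraries come from 1 clone or several, or whether the replicates were separate cultures. The names of the 3 HEB KO columns share a prefix, whose meaning the labels do not give. The spread between libraries may thus be technical.

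TCF12, the targeted gene, had 14.2, 6.69 and 8.28 FPKM in HEB KO against 44.2, 55.7 and 51.0 FPKM in wild type. It fell in HEB KO by 2.31 on the log2 scale (SE 0.28, limma adjusted p = 0.0310). Leaving out HEB KO library 2 or 3 or any wild type library ended the call, with a log2 fold change of -2.10 to -2.40 in those fits. FPKM scales the fragments of a gene by transcript length and library size, and the unit was taken from the values, since the labels do not name it. Summed FPKM was 440703 in HEB KO library 1 and lay between 635114 and 714875 elsewhere. Of the 12937 tested genes, 20.0% were at least 2-fold apart between HEB KO libraries 1 and 2 and 19.3% between 1 and 3, but 1.21% between 2 and 3. Wild type library 1 was 6.28% and 8.60% from wild type libraries 2 and 3, which were 1.11% apart. Across groups the share ran from 2.88% between the libraries numbered 3 to 22.8% between HEB KO library 1 and wild type library 3. HEB KO library 1 was nearer to wild type library 2, at 12.8%, than to HEB KO library 2 or 3. All 10 pluripotent stem cell markers passed the filter on low values, with summed levels of 1852, 3582 and 3806 FPKM in HEB KO and 3183 to 3804 FPKM in wild type, so that the low sum was that of HEB KO library 1. Among them NANOG, a core pluripotency factor, had 74.3, 122.7 and 95.1 FPKM in HEB KO and 208.0, 202.6 and 197.8 FPKM in wild type, without overlap. Of all tested genes, 11.8% were lower in HEB KO without overlap. The groups overlapped for every other marker of that list. Means were higher in HEB KO for SOX2, DNMT3B, ZFP42 and L1TD1 and lower for POU5F1, LIN28A, TDGF1, DPPA4 and TERF1. The 8 mesoderm and smooth muscle markers, of which 6 passed the filter, summed to 68.0, 219.8 and 79.6 FPKM in HEB KO and 24.4 to 44.5 FPKM in wild type. The smooth muscle genes TAGLN, at 32.3, 167.9 and 49.3 FPKM in HEB KO and at most 27.3 FPKM in wild type, and MYL9, at 17.4 to 36.5 FPKM in HEB KO and 2.33 to 8.38 FPKM in wild type, made up most of that sum. The early mesoderm genes MIXL1, at 0.465 to 0.988 FPKM in HEB KO and 1.75 to 5.80 FPKM in wild type, and T, at 0 to 0.015 FPKM in HEB KO and 0.071 to 0.095 FPKM in wild type, lay the other way. The 6 neural ectoderm markers, 2 of them past the filter, summed to 39.5 to 53.0 FPKM in HEB KO and 39.2 to 47.0 FPKM in wild type. The 9 endoderm and liver markers summed to at most 3.10 FPKM in a HEB KO library and 2.57 FPKM in a wild type library, with TTR at 0 in all, and the 6 trophoblast and amnion markers to 8.27, 1.45 and 2.89 FPKM in HEB KO and at most 1.18 FPKM in wild type. The 8.27 FPKM of HEB KO library 1 held TFAP2A at 3.90 and GATA3 at 2.47 FPKM, which were at most 0.035 FPKM in HEB KO libraries 2 and 3. In bulk RNA, fewer cells of a type cannot be told apart from less RNA per cell. No marker of any of the 5 lists was called by limma. The part of these marker differences in the results below was not tested.

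Of the 34 genes, 32 reached 1 FPKM in at least 3 libraries and were tested, all of them with libraries of both groups above that level. CPT1A, lower in HEB KO, was the 1 gene of the 32 past the limma threshold (adjusted p of 0.05), against 0.24% of all 12937 tested genes, 0.216% lower and 0.0232% higher in HEB KO. Its difference chose the pathway, so this is a description of the choice and no test of it. The threshold was missed when no filter on low values was used, and when HEB KO library 2 or 3 or any wild type library was left out, where the log2 fold change of CPT1A was -2.25 to -1.92. Every HEB KO library lay below every wild type library for 7 of the 32 genes, against 11.8% of all tested genes, and above for 2 of 32, against 7.72% of all tested genes. The 7 were CPT1A, ACSL3, ACSL4, SLC25A20, HADHA, HADHB and DECR1, and the 2 were CPT1C and ACAD9. Group means were at least 2-fold apart for 2 genes, CPT1A and DECR1, against 6.11% of all tested genes. These counts come from the contrast that chose the pathway and nothing is read from them. Without CPT1A they were 6 of 31 lower and 2 of 31 higher without overlap, and 1 of 31 at least 2-fold apart. The log2 fold change was below 0 for 18 genes and above 0 for 14, beside 7085 below and 5852 above among all 12937 tested genes. The median log2 fold change over the 32 genes was -0.07, beside -0.04 over all tested genes.

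**Figure D1:**
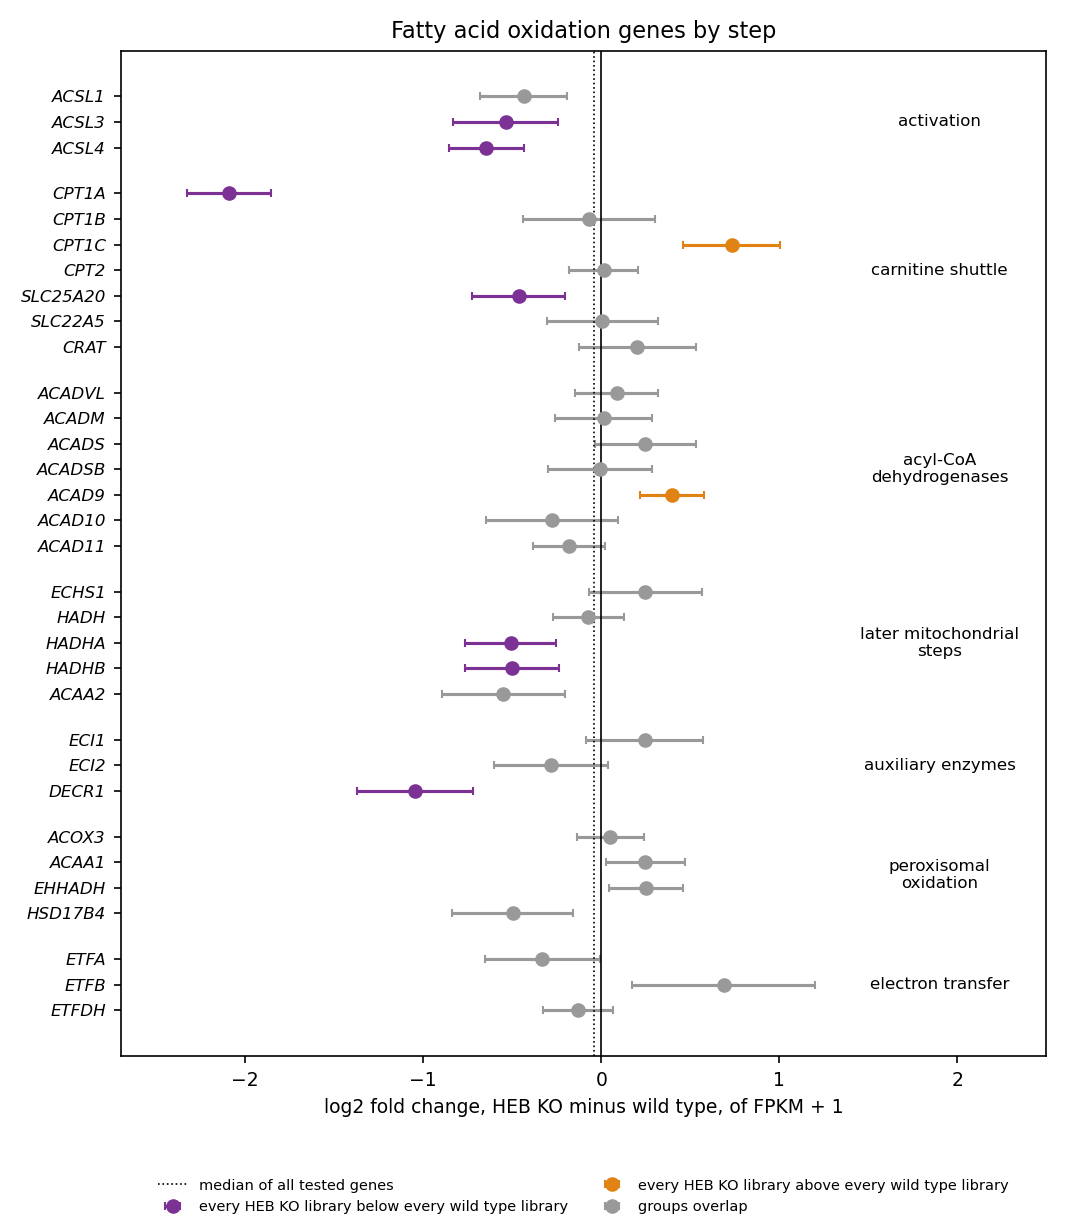
Log2 fold change (HEB KO minus wild type, of FPKM + 1) with its limma standard error for the 32 tested genes, grouped by step of the pathway. CPT1A stands at -2.09 and DECR1 at -1.05, while the other genes lie between -0.65 and 0.73; colours mark the 7 genes lower and the 2 genes higher in every HEB KO library.

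The carnitine shuttle begins with carnitine palmitoyltransferase 1 on the outer mitochondrial membrane, the step that malonyl-CoA inhibits and that largely sets the rate of long-chain oxidation. A family of 3 genes encodes this enzyme: CPT1A is the form of liver and most tissues, CPT1B the muscle form and CPT1C a brain form that lies in the endoplasmic reticulum and has little activity. CPT1A read 4.13, 4.19 and 3.01 FPKM in HEB KO and 19.0, 24.5 and 15.2 FPKM in wild type. All HEB KO values lay far below the lowest wild type value. The means were 3.78 ± 0.668 FPKM in HEB KO and 19.6 ± 4.71 FPKM in wild type (SD, n = 3 each), 5.18-fold lower in HEB KO, with a log2 fold change of -2.09 (SE 0.23). No gene annotated in GENCODE overlaps CPT1A. Its log2 fold change stayed between -2.35 and -1.47 in the 18 settings tried, the smallest being with a pseudocount of 5.

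CPT1C read 18.9, 11.2 and 10.3 FPKM in HEB KO and 9.22, 7.36 and 5.999 FPKM in wild type. The groups did not overlap, and HEB KO library 1 stood well above the others. Its log2 fold change was 0.73 (SE 0.27), and 0.48 without that library. CPT1B read 7.03, 2.47 and 2.86 FPKM in HEB KO and 4.44, 5.41 and 2.55 FPKM in wild type, with overlapping groups. CPT1B shares its span with the read-through gene CHKB-CPT1B, so its level is uncertain. The 3 genes together held 30.0, 17.8 and 16.2 FPKM in HEB KO and 32.7, 37.3 and 23.7 FPKM in wild type, and these sums overlapped between the groups.

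The make-up of that sum separated the groups. The CPT1A values that chose the pathway enter every one of these shares, so their separation is not independent of that choice. CPT1A held 13.8%, 23.5% and 18.6% of the summed CPT1 FPKM in HEB KO and 58.2%, 65.8% and 64.0% in the wild type libraries. CPT1C held 62.8%, 62.6% and 63.8% in the HEB KO libraries and 28.2%, 19.7% and 25.3% in the wild type libraries. CPT1C was thus the highest of the 3 in every HEB KO library, and CPT1A in every wild type library. The CPT1A share averaged 18.6% ± 4.89 in HEB KO and 62.6% ± 3.96 in wild type (SD, n = 3 each), a difference of -44.0 percentage points. Each value is a share of FPKM, with no read counts behind it from which an interval could be made.

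**Figure D2:**
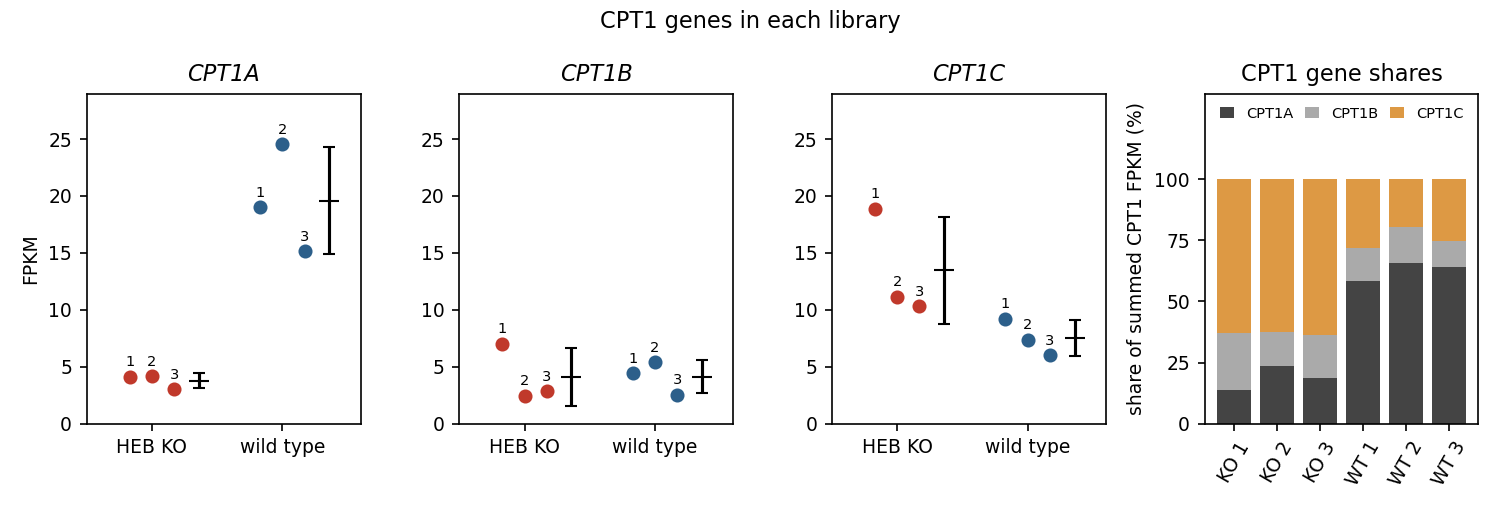
FPKM of CPT1A, CPT1B and CPT1C in each numbered library (points) with the group mean ± SD (black), and the share of each gene in their summed FPKM (stacked bars, KO for HEB KO and WT for wild type). CPT1A lies between 3.01 and 4.19 FPKM in HEB KO and between 15.2 and 24.5 FPKM in wild type, and the bars are mainly CPT1C in HEB KO and mainly CPT1A in wild type.

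RefSeq windows at the starts of these genes (build GRCh38.p14, 250 bases before to 50 after the annotated start) are shown because CPT1A and CPT1C stood on opposite sides in the same libraries and E proteins such as HEB are known to bind E-boxes, CANNTG. Capitals mark each CANNTG, a motif that reads the same on both strands. The CPT1A window is chr11:68844228-68844527 on the minus strand and the CPT1C window chr19:49690866-49691165 on the plus strand.
CPT1A: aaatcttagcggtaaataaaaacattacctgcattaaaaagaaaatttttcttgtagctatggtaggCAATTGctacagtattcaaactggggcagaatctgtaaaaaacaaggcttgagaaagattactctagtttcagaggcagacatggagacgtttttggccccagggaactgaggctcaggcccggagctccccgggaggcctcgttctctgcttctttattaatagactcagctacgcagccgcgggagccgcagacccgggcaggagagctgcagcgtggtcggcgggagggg
CPT1C: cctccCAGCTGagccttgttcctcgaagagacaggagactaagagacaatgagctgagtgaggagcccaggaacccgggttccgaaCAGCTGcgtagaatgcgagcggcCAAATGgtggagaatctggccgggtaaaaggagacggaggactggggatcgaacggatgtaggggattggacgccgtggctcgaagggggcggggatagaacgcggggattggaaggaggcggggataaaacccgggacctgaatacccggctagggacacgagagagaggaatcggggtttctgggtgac
The CPT1A window held 1 E-box, CAATTG at position -183 from the annotated start. None of the 9 GENCODE transcripts of CPT1A starts within 50 bases of that start, so whether the window holds the start used in these cells is unknown. The CPT1C window held CAGCTG at -245 and -164 and CAAATG at -141, and 11 of 24 GENCODE transcripts of CPT1C start within 50 bases of its annotated start. Windows of this length were given for 27 of the 34 genes. CANNTG was present in 18 of the 27, or 66.7%, against 68.7% of 35116 such windows over all genes. CAGCTG, 1 case of CANNTG, was present in 4 of 27, or 14.8%, against 17.9%. CAGGTG on either strand, another case of it, was present in 7 of 27, or 25.9%, against 20.6%. These are matches of letters and no binding was measured.

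Of the other shuttle genes, SLC25A20 alone had groups that did not overlap. CPT2, the enzyme of the inner membrane that returns the acyl group to coenzyme A, read 11.4, 14.3 and 14.0 FPKM in HEB KO and 13.6, 11.6 and 13.9 FPKM in wild type. CPT1A over CPT2 was 0.363, 0.294 and 0.215 in HEB KO and 1.40, 2.11 and 1.09 in wild type, so CPT1A exceeded CPT2 in the 3 wild type libraries alone. That ratio likewise holds the CPT1A values that chose the pathway. SLC25A20, the carrier that exchanges acylcarnitine for carnitine, read 1.88, 4.38 and 3.61 FPKM in HEB KO and 4.39, 4.74 and 5.06 FPKM in wild type. The groups nearly met at their edges, HEB KO library 1 was the low one, and the log2 fold change was -0.46 (SE 0.26), or -0.20 without that library. SLC22A5, which imports carnitine into the cell, ranged from 1.35 to 3.12 FPKM in HEB KO and from 1.26 to 2.997 FPKM in wild type, with library 1 highest in both groups. CRAT, which handles short acyl groups, ranged from 1.51 to 3.16 FPKM in HEB KO and from 0.763 to 2.70 FPKM in wild type.

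Activation is carried out by the long-chain acyl-CoA synthetases. The 3 tested members all had a log2 fold change below 0, as had 7085 of all 12937 tested genes. ACSL4, which favours arachidonic acid, read 20.4, 25.6 and 27.8 FPKM in HEB KO and 42.5, 34.4 and 39.6 FPKM in wild type, a log2 fold change of -0.65 (SE 0.21). ACSL3, linked to lipid droplets and the highest of the family, read 61.1, 55.1 and 57.8 FPKM in HEB KO and 126, 77.3 and 61.9 FPKM in wild type. The groups of ACSL4 lay clearly apart, while those of ACSL3 nearly met, with wild type library 1 far above the other libraries and a log2 fold change of -0.54 (SE 0.29), or -0.25 without that library. ACSL3 held 72.5%, 65.3% and 64.3% of the summed ACSL FPKM in HEB KO and 72.3%, 66.5% and 58.2% in wild type, so the make-up of this family overlapped between the groups. ACSL1, the form typical of oxidative tissues, averaged 3.02 ± 1.03 FPKM in HEB KO and 4.33 ± 0.493 FPKM in wild type, with overlapping groups. ACSL5 and ACSL6 lay below 1 FPKM in every library, at most 0.306 and 0.566 FPKM in HEB KO and 0.276 and 0.635 FPKM in wild type, and were not tested.

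The acyl-CoA dehydrogenases take the first electrons from the chain, each over a range of chain lengths. ACAD9, which also helps to assemble respiratory complex I, read 13.4, 14.5 and 12.9 FPKM in HEB KO and 10.4, 9.32 and 10.6 FPKM in wild type. Each HEB KO value lay above the wild type values, the spread within groups was narrow, and the log2 fold change was 0.40 (SE 0.18). ACAD9 overlaps KIAA1257 in GENCODE. The groups overlapped for the other 6. ACADVL, for very long chains, averaged 34.1 ± 4.08 FPKM in HEB KO and 32.4 ± 7.18 FPKM in wild type. ACADM, for medium chains, averaged 21.1 ± 5.76 FPKM in HEB KO and 20.6 ± 4.15 FPKM in wild type, and ACADS, for short chains, ranged from 1.39 to 3.07 FPKM in HEB KO and from 1.03 to 2.37 FPKM in wild type. Long-, medium- and short-chain enzymes thus kept the same order of levels in both groups. ACADSB, for short branched chains, ranged from 1.95 to 4.79 FPKM in HEB KO and from 2.52 to 3.48 FPKM in wild type. ACAD10 read 12.6 FPKM in HEB KO library 1 but 4.34 and 5.29 FPKM in HEB KO libraries 2 and 3, against 6.25 to 10.3 FPKM in wild type. ACAD11 ranged from 7.35 to 9.78 FPKM in HEB KO and from 8.39 to 10.8 FPKM in wild type.

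HADHA and HADHB encode the subunits of the mitochondrial trifunctional protein, which hydrates, oxidises and cleaves long-chain intermediates. HADHA read 35.4, 45.8 and 60.2 FPKM in HEB KO and 60.7, 64.4 and 73.3 FPKM in wild type. HADHB read 23.1, 35.7 and 41.1 FPKM in HEB KO and 41.2, 45.6 and 53.0 FPKM in wild type. In both genes the highest HEB KO library came within 1 FPKM of the lowest wild type library. The log2 fold change was -0.51 (SE 0.25) for HADHA and -0.50 (SE 0.26) for HADHB. Without HEB KO library 1, the lowest for both, it was -0.32 for HADHA and -0.27 for HADHB. The ratio of HADHA to HADHB was 1.53, 1.28 and 1.47 in HEB KO and 1.47, 1.41 and 1.38 in wild type, so the subunit transcripts kept overlapping proportions. The annotated spans of the 2 genes overlap on opposite strands, and the counting's use of strand is not given in the sources used here.

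The other enzymes of these steps overlapped between groups. ACAA2, the mitochondrial thiolase and second highest of the 34 genes, read 40.0, 77.6 and 94.7 FPKM in HEB KO and 94.3, 86.0 and 115.5 FPKM in wild type, with HEB KO library 1 well below the rest. ECHS1, the short-chain hydratase, read 35.8, 71.3 and 69.1 FPKM in HEB KO and 41.1, 43.8 and 58.2 FPKM in wild type. Library 1 lay below all wild type values and libraries 2 and 3 above them. HADH, which oxidises medium- and short-chain intermediates, averaged 22.9 ± 1.85 FPKM in HEB KO and 24.2 ± 3.56 FPKM in wild type.

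Unsaturated chains need auxiliary enzymes. DECR1, the mitochondrial 2,4-dienoyl-CoA reductase, read 9.21, 16.2 and 23.7 FPKM in HEB KO and 31.5, 29.8 and 37.2 FPKM in wild type. All HEB KO values were below the wild type values, with a wide spread among the HEB KO libraries. The means were 16.4 ± 7.23 FPKM in HEB KO and 32.8 ± 3.90 FPKM in wild type (SD, n = 3 each), and the log2 fold change was -1.05 (SE 0.32). Without both libraries numbered 1 it was -0.73, and over the 18 settings it lay between -1.34 and -0.59. DECR1 overlaps NBN on the opposite strand in GENCODE. The enoyl-CoA isomerases ECI1 and ECI2 overlapped between groups, at 31.0 ± 9.48 and 39.9 ± 14.8 FPKM in HEB KO and 26.1 ± 8.46 and 46.5 ± 6.05 FPKM in wild type. DECR1 over ECI2 was 0.397, 0.362 and 0.459 in HEB KO and 0.636, 0.754 and 0.739 in wild type, so DECR1 also separated the groups relative to ECI2 within each library. How often the ratios of other gene pairs separate the groups was not computed.

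**Figure D3:**
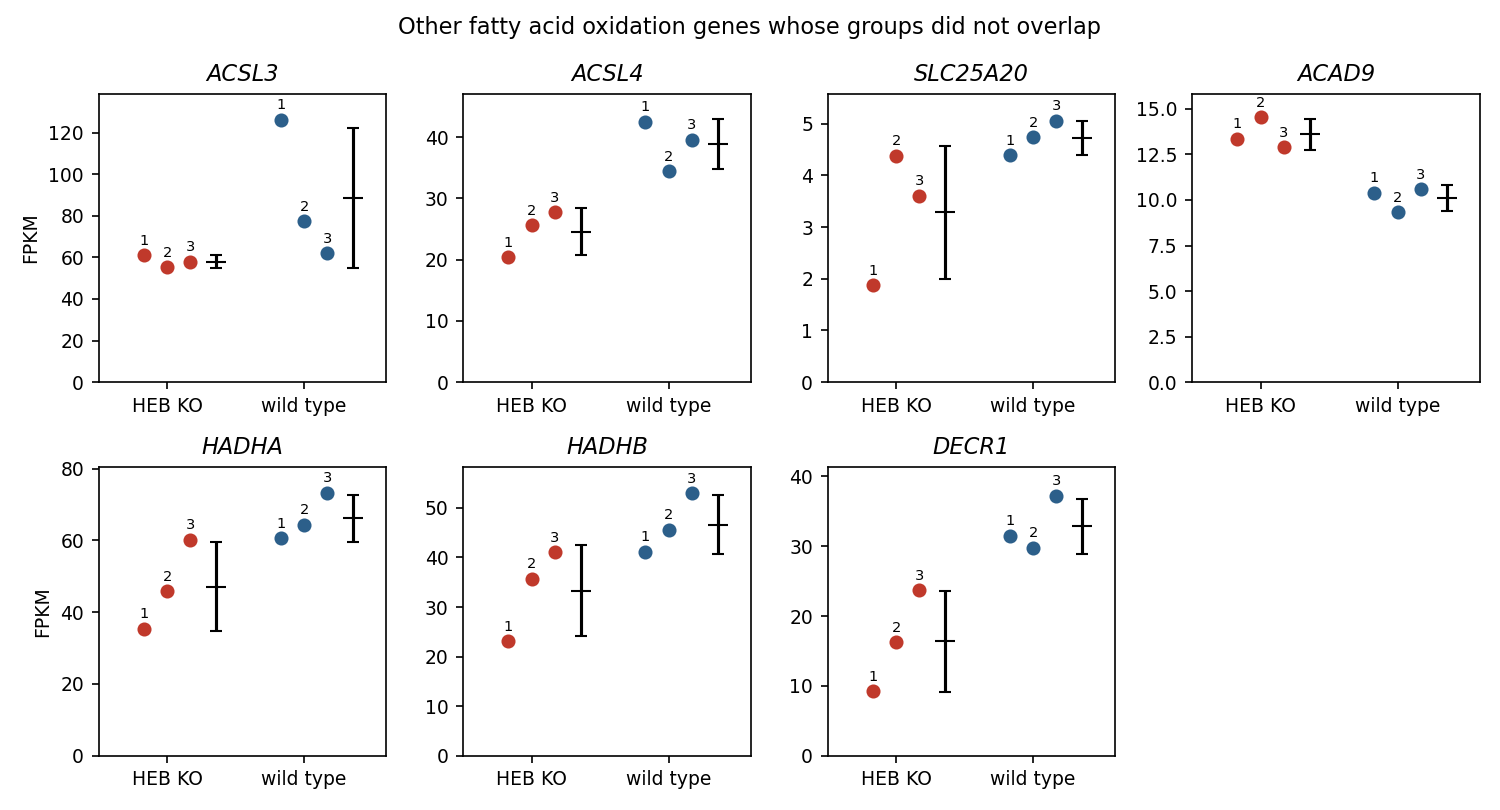
FPKM in each numbered library (points) and group mean ± SD (black) for the 7 further genes whose groups did not overlap. DECR1 and ACSL4 show a gap between the groups, ACAD9 is the gene higher in HEB KO, and ACSL3, SLC25A20, HADHA and HADHB nearly meet at the group edges.

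The groups overlapped for all 4 peroxisomal genes. HSD17B4, the D-bifunctional protein and the highest of the 34 genes, read 68.1, 109 and 153 FPKM in HEB KO and 144, 129 and 174 FPKM in wild type. EHHADH, the L-bifunctional enzyme, averaged 3.17 ± 0.679 FPKM in HEB KO and 2.48 ± 0.290 FPKM in wild type. The ratio of HSD17B4 to EHHADH was 28.3, 29.7 and 44.5 in HEB KO and 63.7, 54.7 and 61.8 in wild type, which did not overlap although the groups of each gene did. For this ratio too, no share over other gene pairs was computed, and nothing is read from it. ACAA1, the peroxisomal thiolase, ranged from 8.75 to 13.5 FPKM in HEB KO and from 8.11 to 10.6 FPKM in wild type. ACOX3, an oxidase of branched chains, averaged 3.12 ± 0.342 FPKM in HEB KO and 2.97 ± 0.221 FPKM in wild type.

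In electron transfer, ETFA and ETFB encode the subunits of the flavoprotein that takes electrons from the dehydrogenases, and ETFDH the enzyme that passes them to ubiquinone. ETFA read 27.3, 54.2 and 62.9 FPKM in HEB KO and 52.4, 56.7 and 63.4 FPKM in wild type. ETFB read 12.5, 22.9 and 22.1 FPKM in HEB KO and 4.19, 15.1 and 20.4 FPKM in wild type, where library 1 was far below the rest. The ratio of ETFA to ETFB was 2.18, 2.37 and 2.84 in HEB KO and 12.5, 3.75 and 3.11 in wild type. ETFDH averaged 4.26 ± 0.520 FPKM in HEB KO and 4.76 ± 0.692 FPKM in wild type. None of the 3 genes separated the groups, although the ETFA to ETFB ratio was lower in every HEB KO library. That ratio also has no share over other gene pairs beside it.

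Among the genes tested, HEB KO library 1 was the lowest of the 6 libraries for 14 of 32, or 43.8%, against 30.2% of all tested genes, and the highest for 7 of 32, or 21.9%, against 27.5%. The 14 were ACSL1, ACSL4, CPT2, SLC25A20, ACADM, ECHS1, HADHA, HADHB, ACAA2, ECI2, DECR1, HSD17B4, ETFA and ETFDH. Relative to HEB KO libraries 2 and 3, its median log2 difference was -0.39 over the 32 genes, from -1.01 over the 3 auxiliary enzymes to 0.64 over the 7 shuttle genes, and 0.0031 over all tested genes. Without both libraries numbered 1, the sign of the log2 fold change turned for 5 of the 32 genes, SLC22A5, CRAT, ACADVL, ECI2 and ETFDH. None of these had separated the groups.

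**Figure D4:**
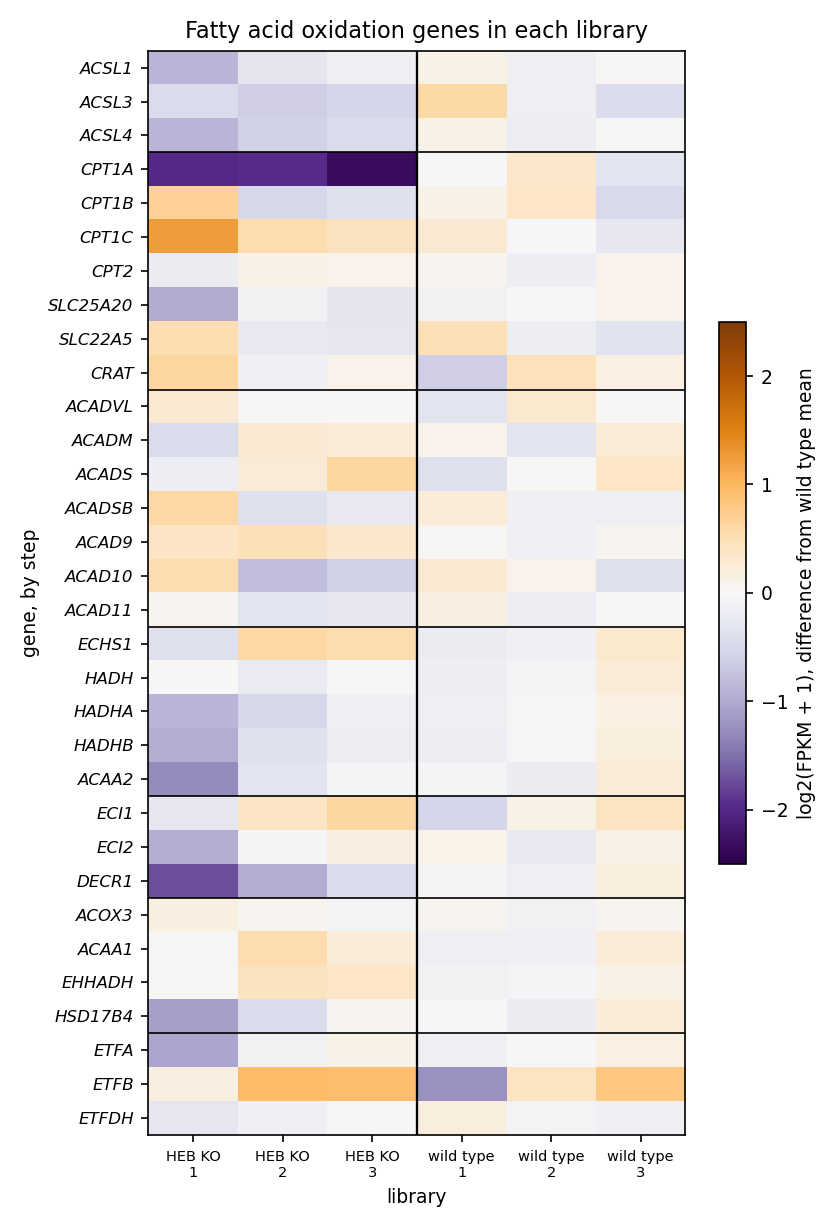
Log2(FPKM + 1) of each tested gene in each library, as the difference from the wild type mean, with lines between the steps of the pathway. CPT1A is the row that is dark in all 3 HEB KO libraries, while for ACAA2, ECI2 and ETFA the low value is in HEB KO library 1.

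Fold changes also went with base composition. Across the 32 genes the log2 fold change correlated with the GC content of the transcript at a Pearson r of 0.416 and a Spearman rho of 0.558, and across the 12017 tested genes with a known GC content at 0.437 and 0.493. These are correlations across genes that share the same 6 libraries, given as a description. Wild type library 1 differed from wild type libraries 2 and 3 with GC content at an r of -0.373 across the 32 genes and -0.434 across all. For HEB KO library 1 against HEB KO libraries 2 and 3 these were 0.241 and -0.0059. With log2 transcript length the r was 0.444 and 0.318 for HEB KO library 1 and 0.373 and 0.174 for wild type library 1. For the log2 fold change between the groups it was -0.279 and -0.0069. With the GC and length trend of each library removed, the log2 fold change was -2.07 for CPT1A, -0.82 for DECR1, -0.47 for ACSL4, 0.51 for CPT1C and 0.42 for ACAD9. The sign turned for 6 of the 32 genes, CRAT, ACADVL, ACADS, ACADSB, HADH and ETFDH, with ACADS at -0.15 after the removal and 0.25 before it. ECI1 was at 0.0019 after it and 0.24 before.

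**Figure D5:**
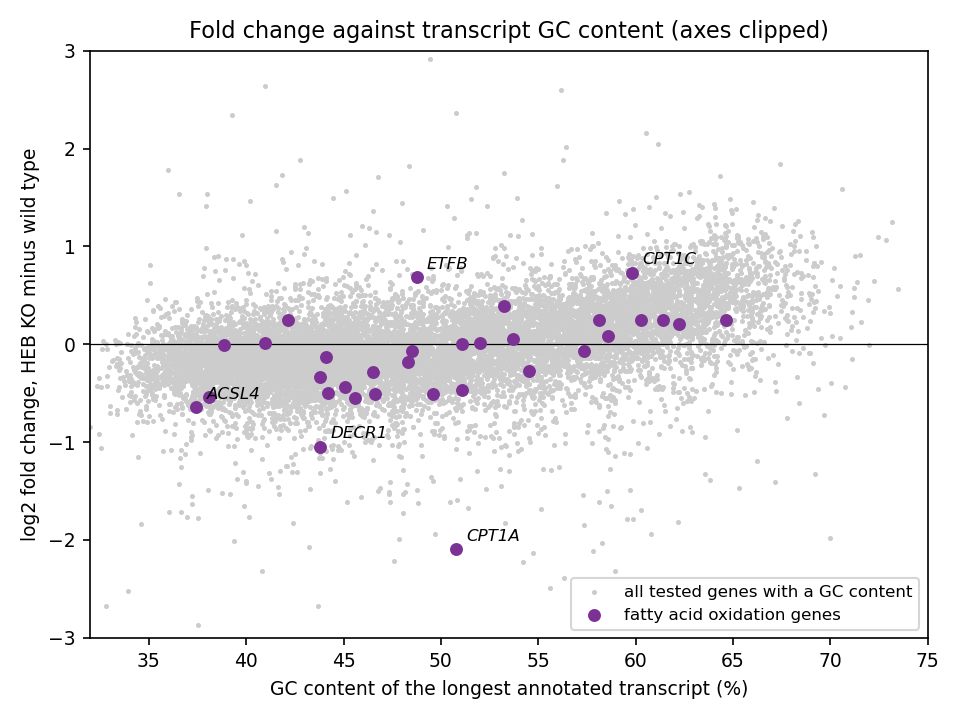
Log2 fold change (HEB KO minus wild type) against GC content of the longest annotated transcript for all tested genes (grey) and the 32 fatty acid oxidation genes (purple), with axes clipped. The grey cloud rises with GC content; CPT1A, at -2.09, lies far below it and CPT1C, at 0.73, within its upper part.

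Beyond the 34 genes, 83 other genes of fatty acid uptake, lipolysis, malonyl-CoA control, regulation, peroxisomes, thioesterases, ketone bodies and carnitine synthesis were listed, and 66 were tested. None was called in either direction by limma, beside 0.24% of all tested genes. An unadjusted limma p under 0.05 was found for 6 of the 66, beside 1300 of all 12937 tested genes. Their median log2 fold change was -0.02. Groups did not overlap for 15, with 7 lower (11.8% of all tested genes) and 8 higher (7.72%). The gene with the highest mean level in each role is given here. DBI, which binds acyl-CoA, averaged 192 ± 81.7 FPKM in HEB KO and 239 ± 45.0 FPKM in wild type (adjusted p = 0.756), and PLIN2, a coat protein of lipid droplets, 18.7 ± 5.43 FPKM in HEB KO and 20.2 ± 2.82 FPKM in wild type (adjusted p = 0.878). ACACA, the carboxylase that makes malonyl-CoA, averaged 40.8 ± 10.9 FPKM in HEB KO and 52.0 ± 8.99 FPKM in wild type (log2 fold change -0.36 with an SE of 0.26, limma adjusted p = 0.675). TFAM, a mitochondrial transcription factor, averaged 29.8 ± 9.01 FPKM in HEB KO and 31.1 ± 3.27 FPKM in wild type (adjusted p = 0.919), and SCP2, a peroxisomal thiolase and lipid carrier, 36.8 ± 13.7 FPKM in HEB KO and 51.1 ± 12.7 FPKM in wild type (adjusted p = 0.638). ACOT7, an acyl-CoA thioesterase, averaged 44.0 ± 9.34 FPKM in HEB KO and 28.0 ± 11.3 FPKM in wild type (adjusted p = 0.540). ACAT1, the acetoacetyl-CoA thiolase, averaged 17.5 ± 7.11 FPKM in HEB KO and 19.4 ± 0.492 FPKM in wild type (adjusted p = 0.833), and HSD17B10, a mitochondrial dehydrogenase, 52.1 ± 19.4 FPKM in HEB KO and 46.2 ± 13.9 FPKM in wild type (adjusted p = 0.920). A p that misses the threshold does not show that levels were equal.

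The nuclear receptor PPARA and its partner PPARGC1A, which induce CPT1A in oxidative tissues, were named after their values were seen. PPARA read 1.76, 0.870 and 1.02 FPKM in HEB KO and 1.23, 1.24 and 1.08 FPKM in wild type (adjusted p = 0.999). PPARGC1A read 0.679, 0.400 and 0.368 FPKM in HEB KO and 0.634, 1.06 and 1.25 FPKM in wild type, and did not pass the filter on low values. The groups overlapped for both. The list of regulators held 18 genes, of which 13 were tested and none was called. Among the 13, GABPA was lower in HEB KO without overlap, against 11.8% of all tested genes. PPARD, RXRA and SIRT3 were higher without overlap, against 7.72% of all tested genes. These genes were likewise named after their values were seen.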

How the data were processed

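The authors deposited 1 normalized value per gene symbol and library for 6 libraries. The unit is not named in the labels and was taken from the values to be FPKM made by the authors: the columns are not whole numbers and sum to unequal totals. Per the labels' protocols, total RNA was depleted of ribosomal RNA and made into stranded libraries, which can retain unspliced RNA. Per the submitters' processing notes, TopHat2 2.1.0, Bowtie2 2.2.6 and hg19 were used. For the quantification tool, its annotation and strand setting, the sources used here give nothing. Without counts the depth of each library is unknown.

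Of 23619 entries, 28 dates in place of symbols were left out. Testing was limited to genes reaching 1 FPKM in 3 or more libraries. It used limma 3.58.1 in R 4.3.3 (intensity trend, log2(FPKM + 1), Benjamini-Hochberg adjustment at 0.05 over 12937 genes). The fit was checked on simulated data with independent noise of equal spread in all libraries. That check does not cover a library that stands apart, such as HEB KO library 1. Fold changes on this scale understate changes of low genes. As the labels name no separate cultures, p-values reflect nothing beyond the spread among these libraries, which may be technical. Folds are ratios of group means, and means are ± SD. The labels gave each group and replicate number. The 34 genes and the other lists were chosen with earlier results of these data known. All 34 genes are named. Of the other pathway genes, those called or, in roles with none, the highest are named. Some regulators were added after their values were seen. Alternatives changed the pseudocount, filter, scaling, trend, library weights, replicate block and libraries used. Windows at gene starts are RefSeq's, on GRCh38.p14. Transcript GC content and gene overlaps come from GENCODE, on GRCh38, and 28 of the 34 genes overlap another annotated gene, 19 of them one in the table.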

Additional observations from a re-analysis of the deposited data

How the results depend on the processing

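In all, 31 genes were called. The number was 11 with no filter on low values, 18 when 5 FPKM was required, 1874 under library weights and 480 without both libraries numbered 1, and it ranged between 7 and 76 when 1 library was omitted. Of the 34 fatty acid oxidation genes, 1 was called. None was called with no filter, 4 were under library weights, and between 0 and 1 when 1 library was omitted. The 4 were CPT1A, lower, and CPT1C, ACAD9 and ECHS1, higher, where 14.5% of all genes were called. Of the other pathway genes, 4 were called under library weights (FABP7, PRKAB2, LPIN1 and GCDH) and 0 in the remaining settings. The median log2 fold change of the fatty acid oxidation genes was -0.23 when 5 FPKM was required, which left 22 of them, beside -0.11 over all tested genes. Without both libraries numbered 1 it was -0.15, beside -0.01 over all tested genes. With 1 library omitted it was -0.18 to -0.03, beside -0.08 to -0.01 over all tested genes. The CPT1A share differed by -49.4 percentage points without CPT1B. TCF12's log2 fold change was -2.31 and missed the threshold with no filter, and was -2.60 to -2.10 when 1 library was omitted. With the replicate block 10 genes were called in all, CPT1A among them, and TCF12 at -2.31 missed the threshold. Deviations of same-numbered libraries correlated at 0.262, -0.0399 and 0.269, so the numbers do not show pairing, and the labels give none.

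Some other pathway genes, none of them called there, took the other sign. Under library weights and without both libraries numbered 1, the log2 fold change was 0.12 and 0.0051 for DBI, 0.21 and 0.12 for PLIN2, 0.24 and 0.23 for TFAM and 0.12 and 0.14 for ACAT1. With 1 library omitted it ranged from -0.67 to 0.0060 for DBI, from -0.31 to 0.10 for PLIN2, from -0.24 to 0.17 for TFAM, from -0.42 to 0.15 for ACAT1 and from -0.10 to 0.49 for HSD17B10. With the GC and length trend removed, an alternative chosen after seeing the data, it was 0.0050 for PLIN2, 0.062 for TFAM and 0.012 for ACAT1. Of 534 values of the fatty acid oxidation genes in other settings, 14 moved by more than the SD between replicates. This count is no measure of stability. A changed filter, intensity trend or replicate block leaves the log2 fold change itself as it was. Omitting 1 library cannot move it by that SD. Tests that need counts were left out, since the table used here holds normalized values. The cause of these shifts was not tested.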
